A study of Mus musculus with 60 samples.

Results

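The 45 genes described here are read as markers of macrophages, monocytes and granulocytes, and they were taken by symbol from the 53700 gene rows of a count table of mouse hearts. All 45 were found. They comprised 7 genes of macrophage identity, 3 of the CSF1 axis, 7 linked to resident macrophages and 6 linked to recruited monocytes and granulocytes. The remaining members were 5 Fc receptors and adaptors, 5 pattern recognition and scavenger receptors, 5 lysosomal and lipid-handling genes, 3 NADPH oxidase subunits and 4 polarization enzymes and secreted markers. RNA was sequenced from 60 hearts, 5 per genotype at each of ZT4, ZT8, ZT12, ZT16, ZT20 and ZT24 (zeitgeber time, hours after lights on; the study treats ZT24 and ZT0 as one time). The dnOGAh mice carried TRE-EGFP-dnOGA, a doxycycline-responsive EGFP and dominant negative O-GlcNAcase transgene, together with αMHC-rtTA, which drives it in cardiomyocytes. Mice with αMHC-rtTA alone served as CON. Both genotypes were male C57BL/6 mice kept in 12 h of light and 12 h of dark. All of them, CON included, were given doxycycline from 10 weeks of age as an injection of 100 µg and then in the diet at 1 g/kg. Hearts were collected 2 weeks later, at 12 weeks, and RNA was taken from both ventricles, so that a transgene driven in cardiomyocytes was read against the RNA of every cell in the tissue.

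Tissue macrophages of the heart are in part long-lived resident cells, which in mice are marked by TIMD4, LYVE1, FOLR2 and CD163 and can maintain themselves locally. After injury, blood monocytes that express LY6C enter the myocardium, mature into macrophages, and clear debris through Fc, scavenger and lectin receptors and through lysosomal proteases. Colony stimulating factor 1 and its receptor sustain both kinds of cell, and the transcription factor PU.1 governs much of their shared gene expression.

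Total assigned counts ranged from 14540266 to 54766622 in dnOGAh libraries and from 9162859 to 82938039 in CON libraries. Levels are given as CPM (counts per 1e+06, with library sizes scaled by TMM), as the lowest, median and highest of the 30 hearts of a genotype unless stated. Oga, the transgene's target gene, to which transgene reads can be assigned, had 70.1, 456 and 837 CPM in dnOGAh hearts, against 46.7, 59.9 and 72.2 CPM in CON hearts. The lowest dnOGAh value, that of dnOGAh ZT12 replicate 3, lay within the CON range and went against its label. Mitochondrial genes took 8.15% to 66.0% of counts in dnOGAh libraries (median 17.2%) and 22.8% to 77.6% in CON libraries (median 30.7%), and the highest value of each genotype was in ZT4 replicate 4. Results are given with and without these 3 libraries wherever leaving them out changed a call. As markers of the labelled tissue, the 6 cardiomyocyte genes examined summed to 15651, 24998 and 64542 CPM in dnOGAh hearts, against 26531, 46307 and 54506 CPM in CON hearts, and 6 of 6 were lower in dnOGAh hearts.

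The first question was how these genes differed between genotypes over the day. Most members were higher in dnOGAh hearts, by a median log2 fold change of 3.06 against 0.06 over all tested genes. By edgeR's quasi-likelihood test with Benjamini-Hochberg adjustment (adjusted p under 0.05), 40 of 45 members were higher, where 38.8% of all 18119 tested genes were. 3 members were lower, where 31.9% of all tested genes were, and 2 did not pass the test. Of the members, 38 were more than 2-fold higher (17.8% of all tested genes) and 27 more than 8-fold higher (4.62% of all tested genes). Of all tested genes, 4.38% had a fold change at or above the members' median. All 45 members passed the filter on low counts, but Arg1, Chil3 and Clec4e would not have passed in CON libraries alone, which favors a higher call for them. Among the other 42 members 37 were higher. Arg1, Chil3 and Clec4e also count among the members more than 2-fold and more than 8-fold higher. These are whole-tissue libraries, in which more cells of a type and more RNA per cell cannot be told apart. The 6 genes of all leukocytes examined were higher as well and summed to 68.2, 395 and 719 CPM in dnOGAh hearts, against 23.3, 36.4 and 56.1 CPM in CON hearts. The part that the lower mitochondrial share and the lower cardiomyocyte genes of dnOGAh libraries had in these differences was not tested.

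**Figure D1:**
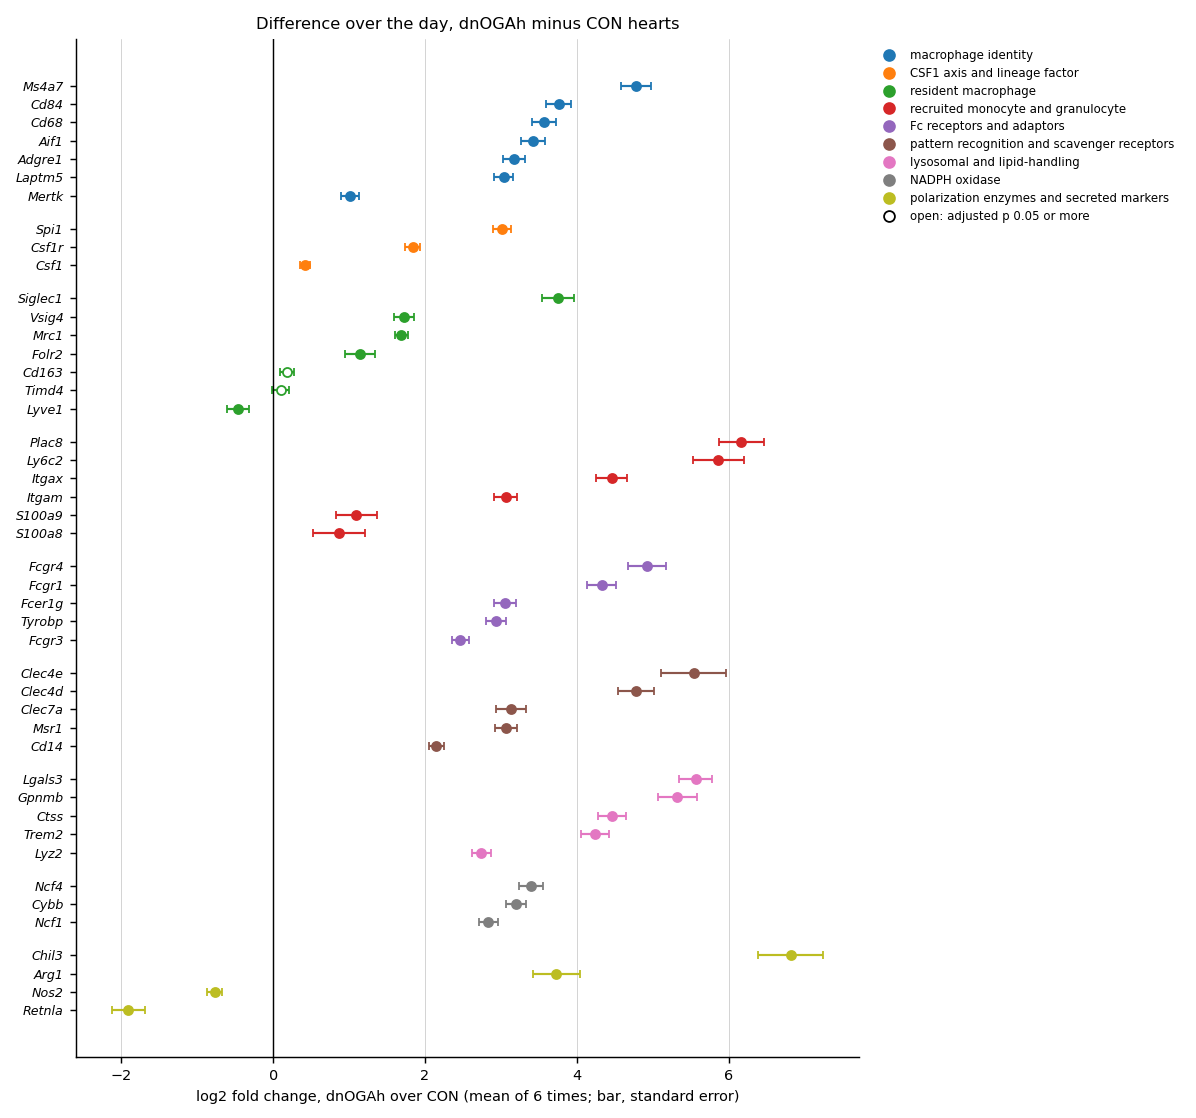
Log2 fold change of each of the 45 genes over the day, dnOGAh over CON hearts (mean of the 6 times), with its standard error as a bar and its group as the color; open circles did not pass the test. Chil3 stands highest at 6.82 and Retnla lowest at -1.91, and the resident macrophage genes spread from 3.75 (Siglec1) to -0.46 (Lyve1).

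In 12 members every one of the 30 dnOGAh hearts was above every one of the 30 CON hearts (Ms4a7, Aif1, Spi1, Itgax, Fcgr1, Tyrobp, Clec4d, Msr1, Ctss, Lgals3, Cybb and Ncf1), where 0.938% of all tested genes showed this. The number depended on the libraries that stand apart. Without dnOGAh ZT12 replicate 3 it was 27 members (3.55% of all tested genes), and without that library and both ZT4 replicate 4 libraries it was 34 (6.93% of all tested genes). Among the 40 higher members, dnOGAh ZT12 replicate 3 was the lowest dnOGAh heart for 27 and lay within the CON range for 23. No member had every dnOGAh heart below every CON heart (0.121% of all tested genes).

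**Figure D2:**
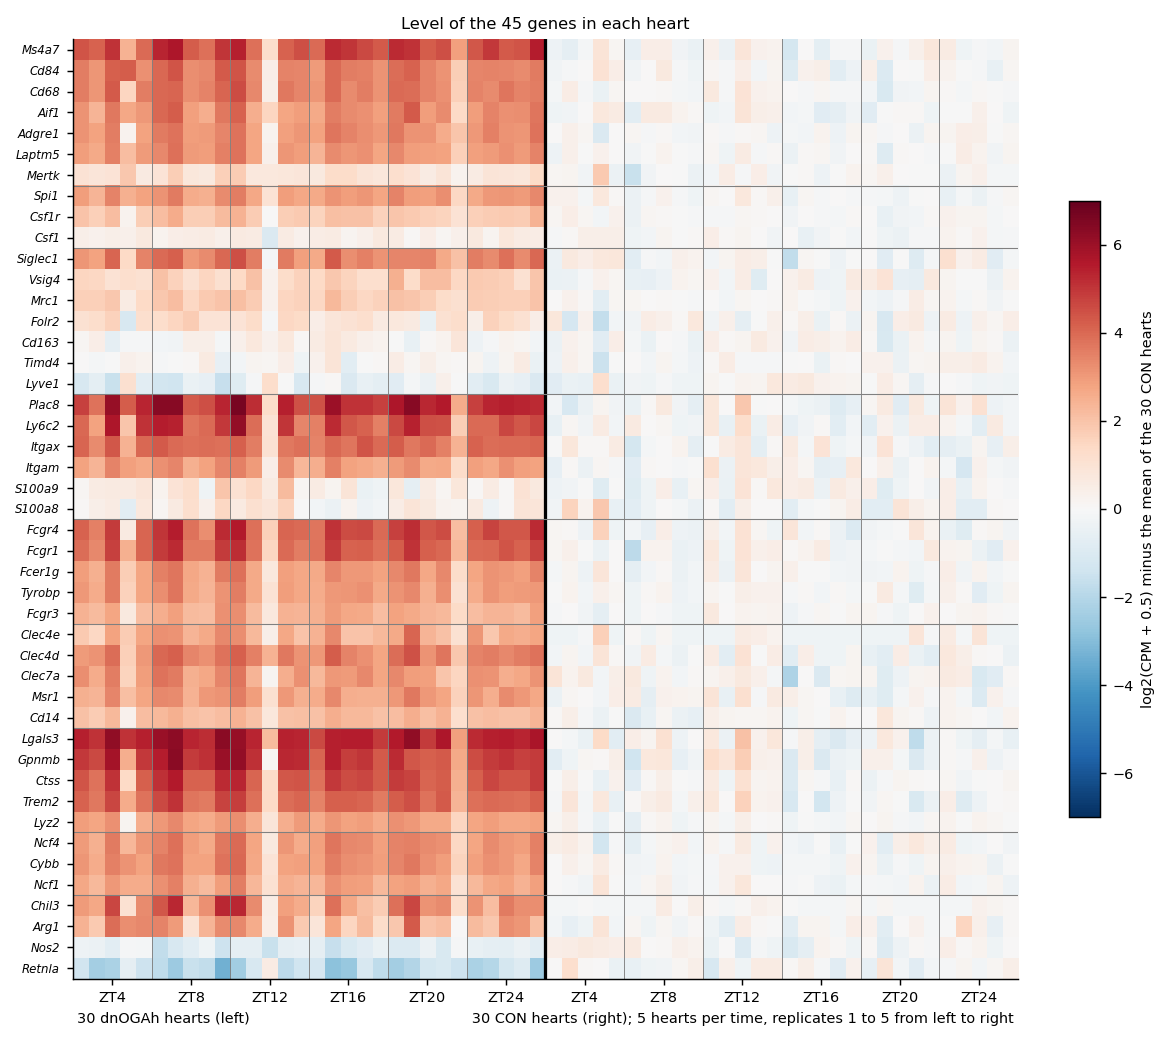
Level of the 45 genes (rows, by group) in the 60 hearts (columns, dnOGAh left and CON right, by time and then replicate), as log2(CPM + 0.5) minus the mean of the 30 CON hearts. Most rows are red in dnOGAh hearts and paler in dnOGAh ZT12 replicate 3 and ZT4 replicate 4, while Lyve1, Nos2 and Retnla are blue in most dnOGAh hearts and Timd4 and Cd163 are near white in both genotypes.

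Genes of macrophage identity were higher without exception (7 of 7), with a median log2 fold change of 3.42. Adgre1, which encodes the F4/80 antigen, had 11.0, 83.4 and 135 CPM in dnOGAh hearts, against 4.38, 9.56 and 12.7 CPM in CON hearts. Of the dnOGAh hearts 28 of 30 were above every CON heart, and the exceptions were dnOGAh ZT12 replicate 3 (11.1 CPM) and dnOGAh ZT4 replicate 4 (11.0 CPM). The log2 fold change was 3.17 (SE, the standard error as derived from the test's F, 0.15, adjusted p = 9.63e-26 in edgeR's quasi-likelihood test). Cd68, a glycoprotein of macrophage lysosomes, had 16.2, 139 and 300.2 CPM in dnOGAh hearts, against 5.34, 11.5 and 23.9 CPM in CON hearts, a log2 fold change of 3.57 (SE 0.16). Only dnOGAh ZT12 replicate 3 overlapped with CON hearts for Cd68. Ms4a7, a membrane protein of mature macrophages, differed most in this group, with 7.88, 76.0 and 178 CPM in dnOGAh hearts, against 1.03, 2.93 and 6.21 CPM in CON hearts and no overlap (log2 fold change 4.78, SE 0.20). Mertk, a receptor for the engulfment of dying cells, differed least. It had 9.87, 15.5 and 32.2 CPM in dnOGAh hearts, against 2.50, 8.17 and 30.3 CPM in CON hearts, and only 1 dnOGAh heart was above the highest CON heart (log2 fold change 1.02, SE 0.12). Both of those highest values came from ZT4 replicate 4. Cd84, Aif1 and Laptm5, which encode an immune cell adhesion receptor, an actin-binding protein and a lysosomal protein of leukocytes, had log2 fold changes of 3.76, 3.42 and 3.04.

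Within the CSF1 axis, all 3 members were higher, the ligand least. Csf1, the growth factor itself, had 17.9, 50.8 and 64.1 CPM in dnOGAh hearts, against 25.8, 36.5 and 51.8 CPM in CON hearts. The genotypes overlapped widely, with 14 of 30 dnOGAh hearts above every CON heart, and the log2 fold change was 0.42 (SE 0.07, adjusted p = 2.23e-07 in edgeR's quasi-likelihood test). For Csf1r, its receptor, the log2 fold change was 1.84 (SE 0.10). Spi1, which encodes PU.1, had 15.1, 58.5 and 98.2 CPM in dnOGAh hearts, against 4.92, 7.07 and 12.4 CPM in CON hearts, without overlap (log2 fold change 3.02, SE 0.12). Of a list of 9 other myeloid growth factors and receptors, 7 were tested, 6 were higher and 1, the stem cell factor receptor Kit, did not pass the test. Csf2 and Csf3 were not tested, with medians of 0.0190 and 0.0208 CPM in dnOGAh hearts and 0 in CON hearts. The largest differences in that list were those of the receptors Flt3 (5.25, on 80 counts over all CON libraries and past the filter only through dnOGAh libraries), Csf2rb2 (4.07), Csf3r (3.75) and Csf2rb (3.64), as log2 fold changes.

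Genes linked to resident macrophages did not move as one group. Of 7, 4 were higher, 1 was lower and 2 did not pass the test, and the median log2 fold change was 1.14. Timd4, a phosphatidylserine receptor of long-lived tissue macrophages, had 1.58, 3.16 and 5.91 CPM in dnOGAh hearts, against 0.730, 2.99 and 4.52 CPM in CON hearts. The ranges overlapped, with 3 of 30 dnOGAh hearts above every CON heart, and the log2 fold change was 0.10 (SE 0.11, adjusted p = 0.418 in edgeR's quasi-likelihood test). Cd163, the hemoglobin scavenger receptor, had 6.19, 11.1 and 18.6 CPM in dnOGAh hearts, against 4.36, 10.3 and 15.2 CPM in CON hearts. Its log2 fold change of 0.18 (SE 0.09) did not pass edgeR's quasi-likelihood test (adjusted p = 0.0765), but passed with RLE scaling (0.21, adjusted p = 0.0344) and with DESeq2 (0.21, adjusted p = 0.031).

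Lyve1, a hyaluronan receptor of resident macrophages, was lower in dnOGAh hearts. It had 6.06, 12.6 and 47.8 CPM in dnOGAh hearts, against 11.1, 19.0 and 46.0 CPM in CON hearts. The highest value of each genotype came from dnOGAh ZT12 replicate 3 and CON ZT4 replicate 4. Lyve1 fell by 0.46 on the log2 scale (SE 0.15, adjusted p = 0.00449 in edgeR's quasi-likelihood test), and by 0.58 without the 3 libraries that stand apart (adjusted p = 2e-07). LYVE1 is also a marker of lymphatic endothelium. Of 6 lymphatic genes 2 were higher (Pdpn 2.08 and Ccl21a 0.23), 1 was lower (Prox1 -0.88) and 3 did not pass the test, and they summed to 53.0, 82.8 and 99.4 CPM in dnOGAh hearts, against 71.7, 87.8 and 101 CPM in CON hearts. Their part in the Lyve1 difference was not tested.

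Folr2, a folate receptor of resident macrophages, was higher in dnOGAh hearts, with 0.223, 2.74 and 4.79 CPM, against 0, 1.21 and 2.19 CPM in CON hearts. The lowest dnOGAh value was that of ZT4 replicate 4, and 21 of 30 dnOGAh hearts were above every CON heart. The log2 fold change was 1.14 (SE 0.19, adjusted p = 7.06e-07 in edgeR's quasi-likelihood test). Siglec1, the sialic acid receptor of tissue macrophages, had the largest difference of the group, with 1.40, 21.1 and 46.5 CPM in dnOGAh hearts, against 0.108, 1.51 and 3.94 CPM in CON hearts (log2 fold change 3.75, SE 0.21). Mrc1, the mannose receptor, and Vsig4, a complement receptor, had log2 fold changes of 1.69 (SE 0.09) and 1.72 (SE 0.13). For Siglec1, Mrc1 and Vsig4 the single dnOGAh heart within the CON range was ZT12 replicate 3.

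Genes linked to recruited cells were all higher (6 of 6, median log2 fold change 3.76), the monocyte genes far more than the granulocyte genes. Ly6c2, a surface antigen of inflammatory monocytes, had 1.16, 16.4 and 59.5 CPM in dnOGAh hearts, against 0, 0.253 and 1.49 CPM in CON hearts, of which 3 had no count. Behind these values stood 21032 counts over all dnOGAh libraries and 195 over all CON libraries. Every dnOGAh heart but ZT12 replicate 3 (1.16 CPM) was above every CON heart, and the log2 fold change was 5.86 (SE 0.34, adjusted p = 2.47e-22 in edgeR's quasi-likelihood test). Its near-identical neighbour Ly6c1, an endothelial gene as well, was lower (113 CPM as the median in dnOGAh hearts, against 165 CPM in CON hearts). The reads of such a pair can be assigned to either gene. Of 8 genes of blood endothelium examined 7 were lower in dnOGAh hearts (31.9% of all tested genes) and 1 did not pass the test. Their median log2 fold change was -0.69, and their part in the Ly6c1 difference was not tested. Plac8, a small protein of monocytes and other leukocytes, had 2.14, 40.9 and 109 CPM in dnOGAh hearts, against 0, 0.475 and 3.57 CPM in CON hearts, and the largest difference of the group (log2 fold change 6.16, SE 0.29). Here too dnOGAh ZT12 replicate 3 alone lay among CON hearts. Itgam and Itgax, which encode the integrins CD11b and CD11c, had log2 fold changes of 3.06 (SE 0.15) and 4.46 (SE 0.20).

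S100a8 and S100a9 encode the pair of calcium-binding proteins that form calprotectin, which neutrophils and monocytes store. S100a8 had 0, 0.650 and 2.02 CPM in dnOGAh hearts, against 0, 0.337 and 2.56 CPM in CON hearts, and no dnOGAh heart exceeded the highest CON heart, ZT4 replicate 4. These values rest on 763 counts over all dnOGAh libraries and 205 over all CON libraries. The log2 fold change was 0.87 (SE 0.34, adjusted p = 0.0206 in edgeR's quasi-likelihood test). The call was lost without replicate 3 of every group (adjusted p = 0.0546) and without replicate 5 (adjusted p = 0.0701). S100a9 had 0.0984, 0.877 and 3.73 CPM in dnOGAh hearts, against 0, 0.407 and 1.29 CPM in CON hearts (log2 fold change 1.10, SE 0.27). Of 14 other genes linked to neutrophils 8 were tested. Of these, 6 passed the filter only through dnOGAh libraries, which favors a higher call. They came out higher, among them Mmp8 (5.13), Cxcl5 (3.98), Cxcl2 (3.78) and Retnlg (3.66), as log2 fold changes, with 14 to 127 counts each over all CON libraries. Of the other 2, Lcn2 was higher (1.35) and Mmp9 did not pass the test. The 6 genes not tested, Elane, Mpo, Camp, Ngp, Ltf and Ly6g, had medians of 0 to 0.117 CPM in dnOGAh hearts and 0 in CON hearts. The list summed to 6.78, 15.8 and 56.0 CPM in dnOGAh hearts, against 1.44, 5.32 and 9.19 CPM in CON hearts.

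Set side by side, the 4 resident genes Timd4, Lyve1, Folr2 and Cd163 summed to 19.4, 29.7 and 64.2 CPM in dnOGAh hearts, against 22.7, 33.4 and 52.2 CPM in CON hearts. The 3 recruited-cell genes Ly6c2, Plac8 and S100a8 summed to 4.28, 58.2 and 169.6 CPM in dnOGAh hearts, against 0.510, 1.11 and 5.66 CPM in CON hearts. The ratio of the recruited to the resident sum was 0.0666, 1.78 and 6.04 in dnOGAh hearts, against 0.0128, 0.0365 and 0.150 in CON hearts. The lowest dnOGAh ratio was that of ZT12 replicate 3, within the CON range, and the other 29 began at 0.203, above every CON heart. These are sums of CPM, so genes with higher levels weigh more. By median in dnOGAh hearts, Plac8 (40.9) and Ly6c2 (16.4) outweighed S100a8 (0.650). Lyve1 (12.6) and Cd163 (11.1) outweighed Timd4 (3.16) and Folr2 (2.74). The separation by ratio therefore largely repeats that of Ly6c2 and Plac8.

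**Figure D3:**
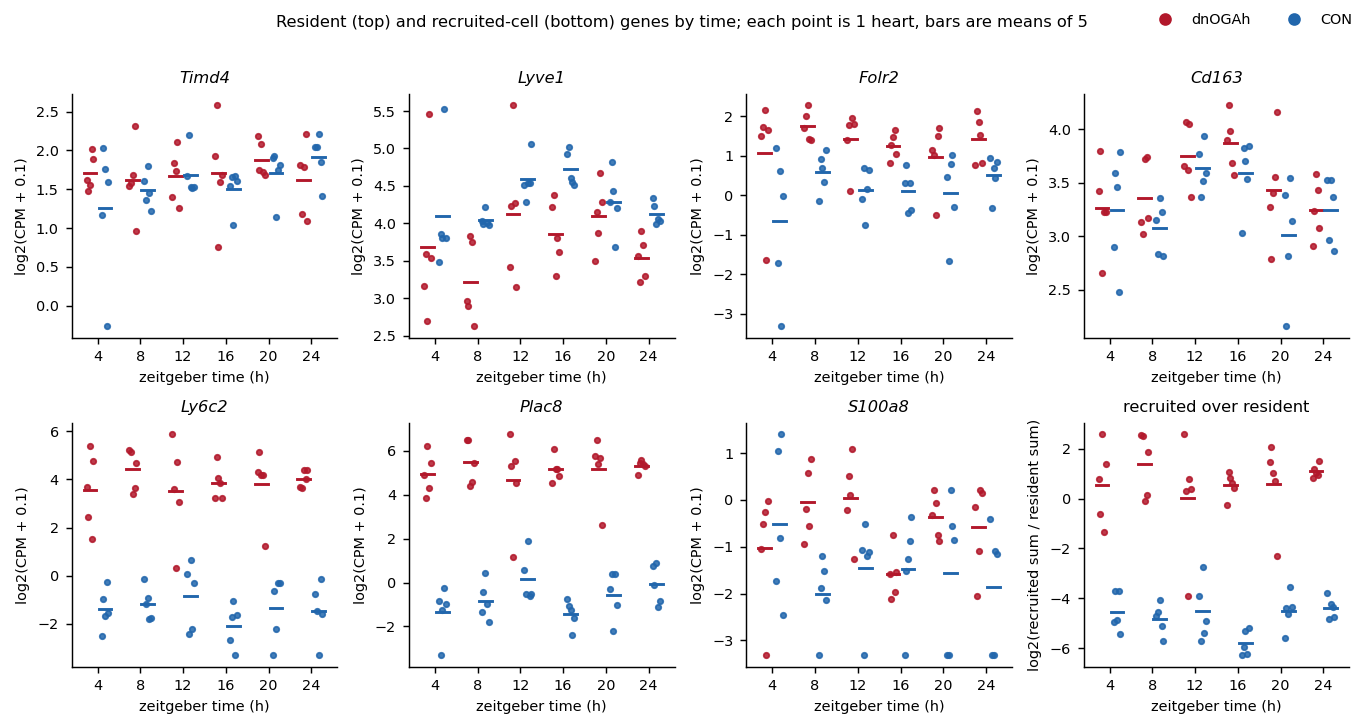
Level of the resident genes (top) and recruited-cell genes (bottom) by zeitgeber time in h, as log2(CPM + 0.1), with the log2 ratio of their sums in the last panel; each point is 1 heart and each bar the mean of 5, dnOGAh left of CON at each time. Timd4 and Cd163 overlap at every time, whereas Ly6c2 and Plac8 separate the genotypes except for dnOGAh ZT12 replicate 3.

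All 5 Fc receptors and adaptors were higher (median log2 fold change 3.06). Fcgr4, an activating receptor for IgG, had 2.01, 32.6 and 73.6 CPM in dnOGAh hearts, against 0.339, 0.955 and 4.38 CPM in CON hearts, and only dnOGAh ZT4 replicate 4 lay within the CON range (log2 fold change 4.93, SE 0.25). Fcgr3, the low-affinity IgG receptor, differed least, with 24.9, 83.4 and 154 CPM in dnOGAh hearts, against 9.86, 15.7 and 24.9 CPM in CON hearts (log2 fold change 2.47, SE 0.11). The high-affinity receptor Fcgr1 had a log2 fold change of 4.32. The signaling adaptors Fcer1g and Tyrobp, through which Fc and TREM receptors act, had values of 3.06 and 2.94.

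The 5 pattern recognition and scavenger receptors were higher as well, 4 of them without Clec4e, which passed the filter only through dnOGAh libraries (median log2 fold change 3.13). Clec4e, the lectin Mincle, had 0.305, 2.94 and 9.64 CPM in dnOGAh hearts, against 0, 0 and 1.46 CPM in CON hearts. Of the CON hearts 18 had no count, and the difference rested on 3379 counts in all dnOGAh libraries against 59 in all CON libraries (log2 fold change 5.54, SE 0.43). Cd14, the co-receptor for lipopolysaccharide, differed least, with 9.23, 33.9 and 46.3 CPM in dnOGAh hearts, against 3.45, 7.83 and 13.2 CPM in CON hearts (log2 fold change 2.15, SE 0.10). Values for the lectins Clec4d and Clec7a (Dectin-1) and the scavenger receptor Msr1 were 4.78, 3.13 and 3.06.

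Lysosomal and lipid-handling genes had the highest median of the 9 groups, a log2 fold change of 4.46, and 5 of 5 were higher. Lgals3, galectin-3, had 18.1, 173 and 318 CPM in dnOGAh hearts, against 0.701, 3.29 and 16.1 CPM in CON hearts, and the genotypes did not overlap even with dnOGAh ZT12 replicate 3 (18.1 CPM). The log2 fold change was 5.56 (SE 0.22, adjusted p = 5.98e-29 in edgeR's quasi-likelihood test). Lyz2, macrophage lysozyme, had the smallest difference of this group but 188, 1106 and 1669 CPM in dnOGAh hearts, against 105, 163 and 219.6 CPM in CON hearts (log2 fold change 2.74, SE 0.12). Its copy Lyz1, whose reads may be shared with Lyz2, had a log2 fold change of 2.51. The protease cathepsin S (Ctss), the lipid receptor Trem2 and the glycoprotein Gpnmb of lipid-laden macrophages had values of 4.46, 4.24 and 5.32.

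The 3 subunits of the NADPH oxidase, which makes superoxide in phagocytes, were all higher. Ncf4 (p40phox) had 2.81, 17.4 and 32.6 CPM in dnOGAh hearts, against 0.365, 1.55 and 3.04 CPM in CON hearts (log2 fold change 3.40, SE 0.16). Ncf1 (p47phox) had 8.78, 27.8 and 54.1 CPM in dnOGAh hearts, against 2.73, 3.76 and 8.03 CPM in CON hearts (log2 fold change 2.83, SE 0.13). For Cybb, the membrane subunit, the log2 fold change was 3.20 (SE 0.13). The genotypes overlapped in 1 dnOGAh heart for Ncf4, again ZT12 replicate 3, and not at all for Ncf1 and Cybb.

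Of the 4 polarization genes, Nos2 and Retnla were lower, and Chil3 and Arg1, which passed the filter on low counts only through dnOGAh libraries, were higher. Chil3, a chitinase-like protein secreted by macrophages, had 0.305, 4.58 and 21.6 CPM in dnOGAh hearts, against 0, 0 and 0.337 CPM in CON hearts, and every dnOGAh heart but ZT12 replicate 3 was above every CON heart. It had no count in 16 of 30 CON libraries and 38 counts over all of them, against 6765 in dnOGAh libraries, so that its log2 fold change of 6.82 (SE 0.43), the largest among the members, depends on the prior count of the fit. Arg1, which degrades arginine, had 0.356, 3.65 and 16.2 CPM in dnOGAh hearts, against 0, 0.345 and 1.85 CPM in CON hearts, with 25 of 30 dnOGAh hearts above every CON heart (log2 fold change 3.73, SE 0.31). Nos2, the inducible nitric oxide synthase, which uses the same substrate, had 2.78, 6.34 and 9.75 CPM in dnOGAh hearts, against 4.54, 10.7 and 16.6 CPM in CON hearts. Nos2 fell by 0.77 on the log2 scale (SE 0.10, adjusted p = 1.33e-09 in edgeR's quasi-likelihood test), although the genotypes overlapped. Retnla, a secreted marker of alternatively activated macrophages, had 0.142, 1.49 and 9.41 CPM in dnOGAh hearts, against 2.52, 6.20 and 14.7 CPM in CON hearts. The highest dnOGAh value was that of ZT12 replicate 3, and Retnla fell by 1.91 on the log2 scale (SE 0.22), the lowest value among the members.

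Promoter sequences are shown for the members whose window, 250 bases before to 50 after a RefSeq gene start, holds GAGGAAGT on either strand, a word of the kind that PU.1 recognizes, since Spi1 and most members were higher together. Of the 45 members 34 matched the RefSeq promoter table by symbol (build GRCm38.p6), and 5 of these held the word, against 3.69% of the 27025 genes in the table. By promoter, 6 of 40 held it, against 3.20% of all 32851. Sequences are read 5′ to 3′ on the gene's strand, with the word in capitals (ACTTCCTC where it lies on the opposite strand; no other motif was searched). They were Ctss (chr3:95526536-95526835, plus strand), Fcgr4 (chr1:171018676-171018975, plus), Ly6c2 (chr15:75111888-75112187, minus, 1 of 2 overlapping windows), S100a8 (chr3:90668821-90669120, plus) and Retnla (chr16:48842359-48842658, plus). Ly6c2 held 2 copies.
Ctss: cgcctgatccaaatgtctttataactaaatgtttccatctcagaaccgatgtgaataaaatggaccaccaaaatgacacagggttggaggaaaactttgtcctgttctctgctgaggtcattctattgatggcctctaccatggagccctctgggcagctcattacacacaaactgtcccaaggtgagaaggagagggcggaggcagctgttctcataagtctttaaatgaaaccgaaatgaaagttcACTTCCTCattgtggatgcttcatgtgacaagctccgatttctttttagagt
Fcgr4: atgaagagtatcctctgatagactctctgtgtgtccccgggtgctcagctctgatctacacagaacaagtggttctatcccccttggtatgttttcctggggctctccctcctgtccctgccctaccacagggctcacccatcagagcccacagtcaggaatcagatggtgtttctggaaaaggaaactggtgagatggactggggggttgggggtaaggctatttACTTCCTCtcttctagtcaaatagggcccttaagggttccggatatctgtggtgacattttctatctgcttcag
Ly6c2: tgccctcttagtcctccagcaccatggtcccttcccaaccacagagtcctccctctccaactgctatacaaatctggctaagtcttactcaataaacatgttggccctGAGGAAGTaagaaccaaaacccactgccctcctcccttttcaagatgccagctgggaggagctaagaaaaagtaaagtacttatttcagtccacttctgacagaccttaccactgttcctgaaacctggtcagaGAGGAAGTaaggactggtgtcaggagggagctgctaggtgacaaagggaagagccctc
S100a8: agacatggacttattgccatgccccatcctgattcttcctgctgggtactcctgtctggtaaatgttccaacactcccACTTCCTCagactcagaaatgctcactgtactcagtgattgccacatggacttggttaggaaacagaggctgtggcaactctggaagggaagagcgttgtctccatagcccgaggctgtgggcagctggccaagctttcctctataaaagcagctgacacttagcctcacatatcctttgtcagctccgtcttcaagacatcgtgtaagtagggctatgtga
Retnla: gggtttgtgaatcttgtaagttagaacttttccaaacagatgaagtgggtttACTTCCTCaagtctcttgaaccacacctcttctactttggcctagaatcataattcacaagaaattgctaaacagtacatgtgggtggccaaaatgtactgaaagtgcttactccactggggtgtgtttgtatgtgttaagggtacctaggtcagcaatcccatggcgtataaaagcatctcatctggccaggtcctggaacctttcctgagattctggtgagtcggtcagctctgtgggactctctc
The word starts 2 bases before the gene start in Ctss, 24 before it in Fcgr4, 172 before it in S100a8 and 198 before it in Retnla, and the first copy in Ly6c2 starts 142 before it. Ctss, Fcgr4 and Ly6c2 were far higher in dnOGAh hearts, S100a8 little higher and Retnla lower, so the word did not go with 1 direction among these 5. A match is a description of letters and not a measured site.

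The second question was whether the difference between genotypes held at each time. By edgeR's quasi-likelihood test at single times, 37 members were higher at ZT4 (18.5% of all tested genes), 40 at ZT8 (24.9%), 37 at ZT12 (18.8%), 37 at ZT16 (23.1%), 37 at ZT20 (23.6%) and 37 at ZT24 (23.7%). Of the members 36 were higher at all 6 times, Arg1, Chil3 and Clec4e included. The share of all tested genes higher at all 6 times was not counted and cannot exceed the 18.5% of ZT4. The higher members that missed some times were Csf1 (called at 4 times), Folr2 (at 3), S100a8 (at 1) and S100a9 (at 1). Lower members numbered 2 at ZT4 (14.2% of all tested genes), 2 at ZT8 (21.2%), 0 at ZT12 (13%), 2 at ZT16 (17.7%), 1 at ZT20 (16.3%) and 2 at ZT24 (18.9%). No member was lower at all 6 times, where the share of all tested genes cannot exceed the 13% of ZT12. Lyve1, lower over the day, passed at no single time. Its log2 fold change ran from -0.83 at ZT16 (SE 0.35, adjusted p = 0.0538 in edgeR's quasi-likelihood test) to -0.17 at ZT20.

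Ly6c2 averaged 18.1 ± 16.5 CPM at ZT4, 21.4 ± 23.1 at ZT12 and 16.7 ± 4.27 at ZT24 in dnOGAh hearts, against 0.333 ± 0.251, 0.664 ± 0.590 and 0.359 ± 0.305 CPM in CON hearts (SD, n = 5 each). Plac8 averaged 36.7 ± 24.3, 44.1 ± 40.3 and 40.6 ± 6.80 CPM at the same times in dnOGAh hearts, against 0.382 ± 0.263, 1.35 ± 1.29 and 0.997 ± 0.634 CPM in CON hearts (SD, n = 5 each). For both genes the SD among dnOGAh hearts was close to the mean or above it at ZT12, and of the 6 times it was smallest at ZT24. S100a8 averaged 0.520 ± 0.342 CPM at ZT4 in dnOGAh hearts, against 1.05 ± 1.13 CPM in CON hearts (SD, n = 5 each), where the difference did not pass the test. At ZT8, the one time at which S100a8 passed, the means were 0.978 ± 0.561 CPM in dnOGAh hearts and 0.177 ± 0.127 CPM in CON hearts (SD, n = 5 each). No member's fold change differed between times by edgeR's quasi-likelihood test of genotype by time (0 of 45 at an adjusted p under 0.05, 0 at an unadjusted p under 0.05 and 0 by DESeq2). Over all tested genes the shares were 0% after adjustment and 2.57% before it.

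Rhythms over the day, the study's main interest, were tested in each genotype with JTK_CYCLE. In dnOGAh hearts 0 members passed at q under 0.05 (0.171% of all tested genes), 2 had an unadjusted p under 0.05 (3.77% of all tested genes), and 0 passed edgeR's test of 24 h cosine terms. In CON hearts 2 members passed, Lyve1 and Nos2 (2.13% of all tested genes), and the same 2 alone had an unadjusted p under 0.05 (11.8% of all tested genes). Nos2 in CON hearts averaged 15.3 ± 0.898 CPM at ZT4, 8.08 ± 2.06 at ZT12 and 11.2 ± 2.19 at ZT24 (SD, n = 5 each), with a log2 amplitude of 0.48 (SE 0.09, q = 0.0115 from JTK_CYCLE's exact null). In dnOGAh hearts the means at those times were 8.08 ± 1.56, 5.82 ± 1.53 and 6.67 ± 0.585 CPM (SD, n = 5 each), with a log2 amplitude of 0.26 (SE 0.12). By its means, Lyve1 in CON hearts was highest at ZT16 (26.6 ± 4.40 CPM) and lowest at ZT8 (16.4 ± 1.21 CPM; SD, n = 5 each). The ZT4 mean (19.9 ± 14.7 CPM) included CON ZT4 replicate 4 at 46.0 CPM. The other CON hearts at ZT4 had 11.1 to 14.4 CPM, below every CON heart at ZT8 (15.7 to 18.6 CPM). Lyve1 had a log2 amplitude of 0.33 in CON hearts (SE 0.10, q = 0.0163 from JTK_CYCLE's exact null), and q was 0.00110 without the 3 libraries that stand apart. In dnOGAh hearts its log2 amplitude was 0.32 (SE 0.18), so that the amplitudes of the genotypes differed by less than their errors. Neither call held when replicate 1, 2, 3 or 5 of every group was left out, and q ran from 0.00252 to 0.225 for Lyve1 and from 0.0249 to 0.155 for Nos2 over the 5 replicates. By edgeR's cosine test in CON hearts only Nos2 passed (adjusted p = 0.0173, against 0.515 for Lyve1).

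The third question was which members differed by more or less than 5 macrophage genes taken as a reference. Each member's log2 CPM was set against the mean of Adgre1, Cd68, Csf1r, Fcgr1 and Mertk in the same heart, and genotypes were compared with limma. The log2 fold changes of these 5 genes over the day ran from 1.02 (Mertk) to 4.32 (Fcgr1), so the scale depends on which genes are taken. As these 5 genes were themselves higher in dnOGAh hearts, the median of all tested genes on this scale was -2.62, and 94.9% of all tested genes were lower by the test and 2.15% higher. A lower value on this scale is therefore what most genes had, also genes that were higher in dnOGAh hearts over the day. Of the other 40 members 24 were higher, 13 were lower and 3 (Tyrobp, Lyz2 and Ncf1) did not pass. The 24 include Arg1, Chil3 and Clec4e, which passed the filter on low counts only through dnOGAh libraries. With Adgre1 alone in place of the 5 genes, 14 of the 40 were higher and 14 lower. The shares of all tested genes with Adgre1 alone were not counted, so these numbers stand without a background.

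Recruited monocyte genes were higher on this relative scale, Plac8 by 3.20 (SE 0.22, adjusted p = 2.61e-21 from limma) and Ly6c2 by 2.70 (SE 0.25), as were Lgals3 (2.79), Chil3 (2.47, past the filter only through dnOGAh libraries), Gpnmb (2.43), Fcgr4 (1.93) and Ms4a7 (1.88). Resident genes were lower in 6 of 7 cases, a share below the 94.9% of all tested genes. Relative to the macrophage genes, Lyve1 fell by 3.25 (SE 0.23), Timd4 by 2.58 (SE 0.18), Cd163 by 2.51 (SE 0.17) and Folr2 by 1.47 (SE 0.24), all in log2 units. Timd4 and Cd163 lay near the median of all tested genes, Lyve1 below it and Folr2 above it. Mrc1 (-1.03) and Vsig4 (-0.99) were lower than the reference genes but above that median, and Siglec1 was higher (0.93). S100a8 stood at -1.72 (SE 0.31) and S100a9 at -1.66 (SE 0.27). Both were above the median of all tested genes and higher over the day, by less than the mean of the 5 macrophage genes. Retnla (-4.74) and Nos2 (-3.47) had the most negative values.

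**Figure D4:**
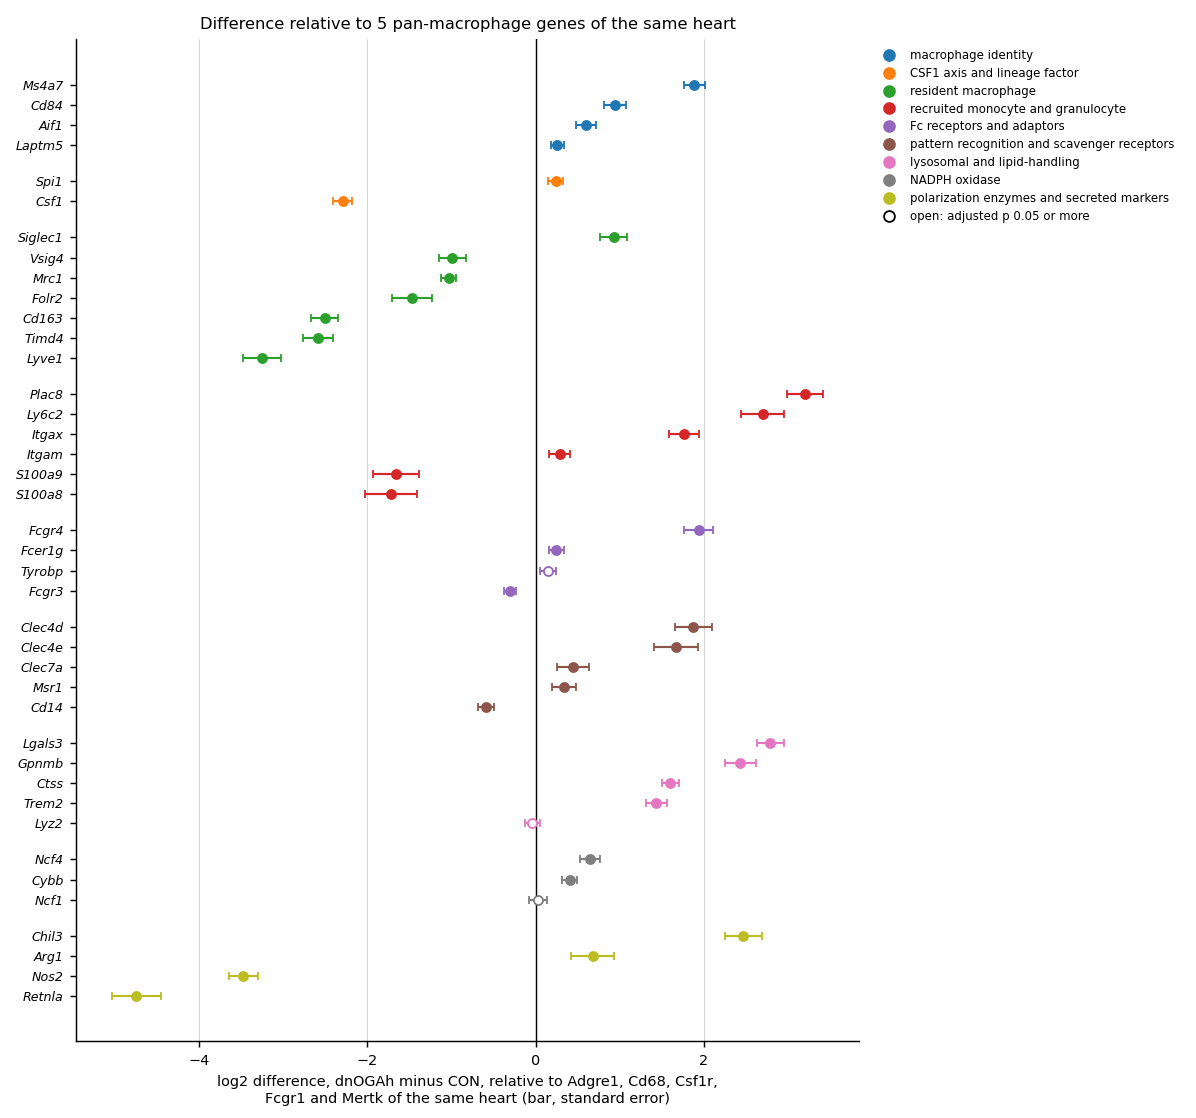
Log2 difference of 40 genes, dnOGAh minus CON hearts, relative to the mean of 5 pan-macrophage genes of the same heart, with its standard error as a bar and open circles for genes that did not pass the limma test. Plac8 stands highest at 3.20, 6 of 7 resident genes lie left of 0, and S100a8 and S100a9 lie at -1.72 and -1.66, where the median of all tested genes is -2.62.

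Within dnOGAh hearts, 8 pairs of genes were compared across the 30 hearts on log2 CPM centred on each time's mean, with permutation within times and Benjamini-Hochberg adjustment over the 8 pairs. Both values of a heart share its depth and composition. Ly6c2 and Plac8 went together (r = 0.95, rho = 0.93, permutation p = 1e-05 for each, the smallest these permutations can give, adjusted p = 8e-05). Without the 2 hearts farthest from the Ly6c2 median r was 0.91. Ly6c2 and Lyve1 went in opposite directions by r (r = -0.60, permutation p = 0.00905, adjusted p = 0.0362) but rho did not pass (rho = -0.44, permutation p = 0.0365, adjusted p = 0.0973), and r was -0.52 without the 2 farthest hearts. That relation rested on 2 libraries: without dnOGAh ZT12 replicate 3 and dnOGAh ZT4 replicate 4, r was -0.26 (permutation adjusted p = 0.342).

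S100a8 and S100a9 gave r = 0.36 (permutation p = 0.0250, adjusted p = 0.0666) and rho = 0.45 (permutation p = 0.0145, adjusted p = 0.0578). Without dnOGAh ZT12 replicate 3 and dnOGAh ZT4 replicate 4 this pair passed, with r = 0.50 (permutation adjusted p = 0.0273) and rho = 0.53 (permutation adjusted p = 0.0262). S100a8 and Ly6c2 gave r = 0.33 (permutation p = 0.132, adjusted p = 0.177) and rho = 0.27 (permutation p = 0.178, adjusted p = 0.292). Among resident genes, Timd4 and Cd163 gave r = 0.28 (permutation p = 0.106, adjusted p = 0.169) and rho = 0.27 (permutation p = 0.182, adjusted p = 0.292). Lyve1 and Folr2 gave r = -0.55 (permutation p = 0.0404, adjusted p = 0.0807) and rho = -0.17 (permutation p = 0.395, adjusted p = 0.527), and r was -0.07 without the 2 hearts farthest from the Lyve1 median. No relation of Oga passed over all 30 hearts. Oga and Adgre1 gave r = 0.24 (permutation p = 0.359, adjusted p = 0.410) and rho = -0.11 (permutation p = 0.583, adjusted p = 0.583), and Oga and Ly6c2 gave r = 0.12 (permutation p = 0.660, adjusted p = 0.660) and rho = -0.15 (permutation p = 0.475, adjusted p = 0.542). Without the same 2 libraries both became negative over 28 hearts, with r = -0.63 for Oga and Adgre1 (rho = -0.60, permutation adjusted p = 0.00624 for r and 0.0136 for rho) and r = -0.51 for Oga and Ly6c2 (rho = -0.45, permutation adjusted p = 0.0253 for r and 0.0600 for rho).

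**Figure D5:**
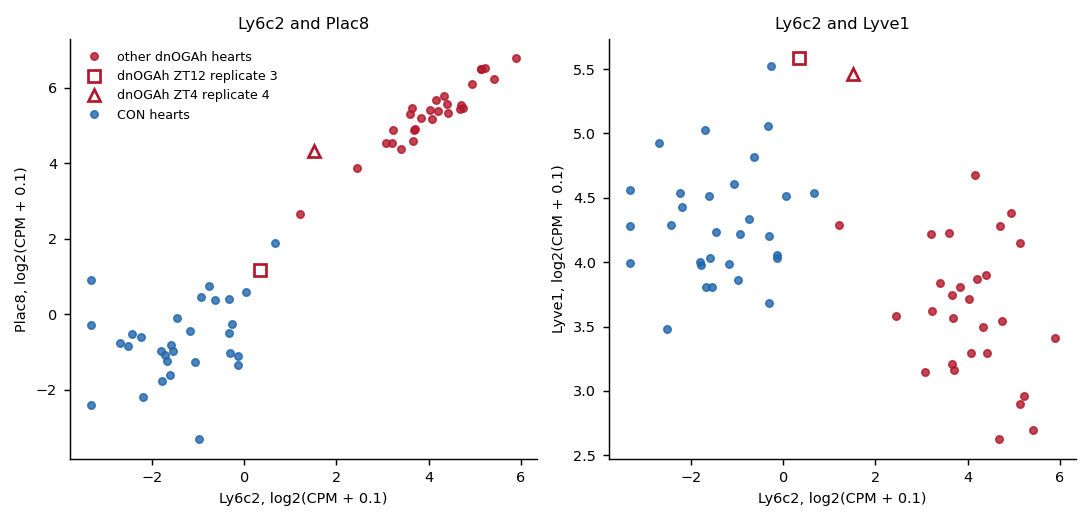
Ly6c2 against Plac8 (left) and against Lyve1 (right) in each heart, all as log2(CPM + 0.1), with the 2 dnOGAh libraries that stand apart drawn as a square and a triangle. Ly6c2 and Plac8 lie along one line in dnOGAh hearts, while the square and the triangle are the highest Lyve1 values among dnOGAh hearts and sit at low Ly6c2.

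Other lists set the members in context. Of 28 further macrophage and monocyte genes 27 were higher and 1, the iron exporter Slc40a1, was lower (-0.69), with a median log2 fold change of 2.30. The largest differences were those of Spp1 (6.26), which encodes osteopontin, Cd5l (6.12), Cd300e (5.42) and Ccr2 (4.63), the chemokine receptor that brings monocytes into tissue. Cd5l and Cd300e rested on 19 and 17 counts over all CON libraries. They and Marco passed the filter only through dnOGAh libraries, and 24 of the other 25 genes were higher. Of 6 chemokines examined 5 were higher, among them Ccl8 (5.47), Ccl12 (4.30), Ccl7 (4.28) and Ccl2 (4.12), and Ccl24 was lower (-0.99). Of the 5 dendritic cell genes that passed the filter in CON libraries alone 4 were higher and 1 was lower, and of 3 such lymphocyte genes 2 were higher. Of 4 such eosinophil and mast cell genes 0 were higher, 1 was lower and 3 did not pass the test. Of 8 tested erythroid and platelet genes, out of 10 that mark blood cells, 5 were lower (all 4 globins and Alas2), 2 were higher and 1 did not pass, and they summed to 50.4, 149 and 611 CPM in dnOGAh hearts, against 135, 295 and 1048 CPM in CON hearts. Their part in the differences of the monocyte genes was not tested.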

How the data were processed

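The deposited table holds raw counts per Ensembl gene (53700 genes and 5 summary rows, left out of library sizes), which the authors made from paired-end reads of a polyA library. Per the submitters' processing notes the build was GRCm39, with HTSeq 2.0.2, STAR 2.7.10b and Trim Galore 0.6.7 among the tools. The annotation release and the strand setting of the counting are not given in the sources used here. Gene names came from a table for GRCm38 (52093 genes named), in which Oga is Mgea5, and no gene coordinates were taken from it. Reads with several alignments were 16.0% (median) of dnOGAh and 23.1% of CON library totals.

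Counts were analysed in R 4.3.3. Genes were kept by filterByExpr over 12 genotype by time groups (minimum count 10), which left 18119, and scaled by TMM. The test was edgeR 4.0.16 (glmQLFit, glmQLFTest) with 12 group means over all 60 libraries. The SE of its fold changes was the size of the log2 fold change divided by the square root of the test's F. It is thus an approximation, least sure for genes with few counts. The relative scale used limma 3.58.1 on log2 CPM (prior count 2). JTK_CYCLE used a period of 24 h, 6 lags in steps of 2 h and an exact Jonckheere-Terpstra null. Relations used 100000 permutations within times. The edgeR tests over the day and at ZT8, the limma test and JTK_CYCLE were tested on simulated data with known answers. The test of genotype by time was run only on simulated data without such a difference. The permutation test, edgeR's cosine test and DESeq2 were not tested on simulated data. The members and gene lists were chosen with earlier results of these data known. Genes described in full were those the choice of members names, Adgre1, Cd68, the largest and smallest fold change of each group, and every member that was lower or did not pass, and from each other list up to 4 genes with the largest change. Protein sequences, planned for some members, were not used here. Alternatives were DESeq2 1.42.0, RLE scaling, filters (none, or 1 CPM on average), omission of each replicate in turn, of dnOGAh ZT12 replicate 3 or of 3 libraries, a replicate block, Adgre1 alone as reference and a prior count of 0.5. Leaving out libraries from the counts of genes without overlap was added after seeing the data.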

Additional observations from a re-analysis of the deposited data

Results flagged for a closer look

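In the genes with values by time (Timd4, Lyve1, Folr2, Cd163, Ly6c2, Plac8, S100a8, Adgre1, Cd68 and Oga), 120 groups of 5 hearts were searched for a heart far from the other 4 on the log2 scale, and 16 were found. Chance alone gives such a heart in about 1 in 20 groups. Of the 16 values, 7 were in the libraries that stand apart. In dnOGAh ZT12 replicate 3, Adgre1 was at 11.12 CPM (other hearts 65.9 to 133) and Cd68 at 16.19 CPM (129.9 to 300.2). In dnOGAh ZT4 replicate 4, Adgre1 was at 11.02 CPM (67.9 to 115), Folr2 at 0.2234 CPM (2.73 to 4.34) and S100a8 at 0 (0.386 to 0.879). In CON ZT4 replicate 4, Lyve1 was at 46.01 CPM (11.1 to 14.4) and Adgre1 at 4.382 CPM (9.39 to 11.8).

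Outside those libraries, dnOGAh ZT20 replicate 5 was low for both monocyte genes, with Ly6c2 at 2.224 CPM (17.9 to 34.9) and Plac8 at 6.137 CPM (42.0 to 89.5). Oga was high in dnOGAh ZT4 replicate 5 at 773.2 CPM (402.6 to 476) and low in CON ZT24 replicate 3 at 54.03 CPM (59.1 to 60.4). Among CON hearts, Timd4 was at 4.477 CPM in ZT12 replicate 2 (2.75 to 3.08), at 1.958 CPM in ZT16 replicate 3 (2.81 to 3.09) and at 2.112 CPM in ZT20 replicate 3 (3.27 to 3.71). Lyve1 was at 18.56 CPM in CON ZT8 replicate 3 (15.7 to 16.3), and S100a8 at 0 in CON ZT12 replicate 2 (0.337 to 0.596).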

How the results depend on the processing

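The counts of members higher over the day and at each time stayed within 1.5 times of the reported ones under every alternative run, as did those lower over the day and those of genotype by time. Counts of lower members at single times were small and moved: at ZT12 2 without the 3 libraries and 1 without dnOGAh ZT12 replicate 3, at ZT16 1 with no filter, and over the 5 replicate numbers left out 1 to 2 at ZT4, 0 to 1 at ZT12, 1 to 2 at ZT16 and 0 to 1 at ZT20. Members without overlap numbered 27 without dnOGAh ZT12 replicate 3 and 34 without the 3 libraries. Oscillating members in CON hearts numbered 0 to 2 over the replicates left out and 1 by edgeR's cosine test. With Adgre1 alone as reference 14 members were relatively higher (the share of all tested genes was not counted), and the differences of Laptm5 (-0.084), Spi1 (-0.11), Itgam (-0.056), Fcer1g (-0.097), Tyrobp (-0.19), Msr1 (-0.0043) and Ncf1 (-0.31) turned negative. Over the replicates left out, Timd4 ran from -0.0048 to 0.15 over the day and Ncf1 from -0.0022 to 0.069 on the relative scale. Without dnOGAh ZT12 replicate 3 and ZT4 replicate 4, r became 0.50 for S100a8 and S100a9, 0.15 for Lyve1 and Folr2, -0.26 for Ly6c2 and Lyve1, -0.63 for Oga and Adgre1 and -0.51 for Oga and Ly6c2. The cause of these shifts was not tested.

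The replicate numbers did not pair the hearts. Deviations of same-numbered libraries from their group means had a median correlation of 0.0052 (-0.58 to 0.55), and 15 of 60 libraries correlated best with their own number. With the replicate block 40 members were higher and 3 lower over the day, and Lyve1 stood at -0.50. DESeq2 was not run on the relative scale, which is no count. Low counts limit these comparisons, where 38 to 214 counts over all CON libraries stand behind Chil3, Clec4e, Ly6c2, Clec4d, S100a8 and Arg1.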
